A study of Mus musculus with 4 samples.

Results

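The immunity-related GTPases (IRG proteins) of the mouse were represented by 7 genes, Irgm1, Irgm2, Igtp, Iigp1, Ifi47, Tgtp1 and Tgtp2. The 7 were taken by family membership, with earlier results of these data known. Of these, 4 had a probe set annotated with a single gene symbol and entered the test over 22180 genes. The other 3 were read only by probe sets annotated with several symbols, and the 3 shared probe sets concerned are described apart. The values came from peritoneal macrophages elicited with thioglycollate. The donors were wild type, of the 129S6/SvEvTac strain (129S6) or C57BL/6 (B6, substrain not given in the labels), all 3 months old and fed regular chow. There were 4 arrays, with 1 female and 1 male pool for each strain, and each pool held equal amounts of RNA from 3 mice per the labels. Macrophages were collected by lavage 4 days after injection of 1 ml of 4% thioglycollate and cultured overnight in medium with 10% serum, so the values describe plated cells, and the labels name no interferon treatment. Each pool is a single sample, so the spread between individual mice was not measured.

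IRG proteins are interferon-inducible GTPases of cell-autonomous immunity. Effector members load onto the vacuoles of intracellular parasites and bacteria, such as Toxoplasma gondii and Chlamydia, and disrupt them. Regulatory members of the Irgm type sit on the membranes of the host cell and hold the effectors in their inactive form there. In mouse macrophages the genes are induced chiefly by interferon gamma and, to a varying degree, by type I interferon.

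The promoters are shown first because they hold what several of these genes have in common apart from their values. Sequences were taken from RefSeq promoters of the GRCm38.p6 build, a C57BL/6J genome, so they do not show the 129S6 sequence. Each covers 250 bases before and 50 bases after the annotated start. A promoter was listed for 12 genes of the family, other loci included, and those of Iigp1, Gm4951 and F830016B08Rik were not used here. Both strands were searched for the letters TTCNNNGAA, the GAS motif of promoters that respond to interferon gamma. They were also searched for a pair of GAAA runs with 2 bases between them, a core of the ISRE motif bound by interferon regulatory factors. Of the 12 promoters 6 held both, against 0.454% of all 32851 listed promoters, while 8.3% of all promoters held the first and 3.44% the second. The windows below are upstream of the start, 5′ to 3′ on the strand of the gene, with the motif matches in capitals.
Irgm2 (chr11:58214890-58214934, + strand): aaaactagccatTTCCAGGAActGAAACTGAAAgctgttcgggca
Igtp (chr11:58199499-58199543, + strand): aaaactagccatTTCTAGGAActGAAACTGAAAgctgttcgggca
Tgtp1 (chr11:48992302-48992346, - strand): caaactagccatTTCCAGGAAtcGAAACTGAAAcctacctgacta
Tgtp2 (chr11:49064261-49064305, - strand): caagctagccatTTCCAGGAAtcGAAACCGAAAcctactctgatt
Gm12185 (chr11:48927236-48927280, - strand): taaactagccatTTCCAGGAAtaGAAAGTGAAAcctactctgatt
Gm12250 (chr11:58183740-58183818, + strand): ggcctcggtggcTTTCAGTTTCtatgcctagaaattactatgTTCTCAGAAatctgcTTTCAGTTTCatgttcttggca
Irgm1 (chr11:48871423-48871462, - strand): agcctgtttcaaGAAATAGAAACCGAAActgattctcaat

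In Irgm2, Igtp, Tgtp1, Tgtp2 and Gm12185 the GAS match came first and the ISRE match followed on the same strand without overlapping it. The GAS match began 75 bases before the annotated start in Irgm2, 45 in Igtp, 88 in Tgtp1, 81 in Tgtp2 and 86 in Gm12185. The promoters of Irgm2 and Igtp shared an unbroken run of 61 bases. Gm12250 carried its 2 ISRE matches on the opposite strand, around a GAS match. Irgm1 held 2 overlapping ISRE matches and no match to the GAS letters in this window. The listed promoters of Ifi47, Gm5431, 9930111J21Rik2 and Irgq held neither run of letters, and that of 9930111J21Rik1 held a single ISRE match past the start. A match is a description of letters and not a bound site.

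The regulatory member Irgm2 had the largest strain difference among the 7. Its log2 intensity was 7.35 in the 129S6 female array, 7.43 in the 129S6 male, 9.21 in the B6 female pool and 8.43 in the B6 male pool. Both B6 arrays lay above both 129S6 arrays, with a gap of 1.00 between the nearest values. The difference of B6 minus 129S6 was 1.43 ± 0.26 (SE), or 2.69-fold. This and all errors below are limma's SE, from 2 arrays per strain with the variance moderated by that of all probe sets fitted. The difference did not pass the threshold of 0.05 (limma adjusted p = 0.128).

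Irgm1, which encodes a regulatory GTPase that mice need for resistance to many intracellular bacteria, was high in 1 array. It read 7.65 in both the 129S6 female and the 129S6 male array, 9.16 in the B6 female pool and 7.74 in the B6 male pool. The B6 female value was thus 2.85-fold above the 129S6 female value, and the B6 male value exceeded the 129S6 male value by 0.09 on the log2 scale. The fitted difference was 0.80 ± 0.38 (SE; limma adjusted p = 0.400).

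Igtp, also known as Irgm3, encodes the third regulatory GTPase and is required for resistance to Toxoplasma gondii. Its values were 6.97 in the 129S6 female, 7.24 in the 129S6 male, 8.01 in the B6 female pool and 7.24 in the B6 male pool. The B6 female array was the highest, and the B6 male value lay at that of the 129S6 male. Its fitted difference was 0.52 ± 0.30 (SE; limma adjusted p = 0.470). Its promoter, like that of Irgm2, held both motifs.

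**Figure D1:**
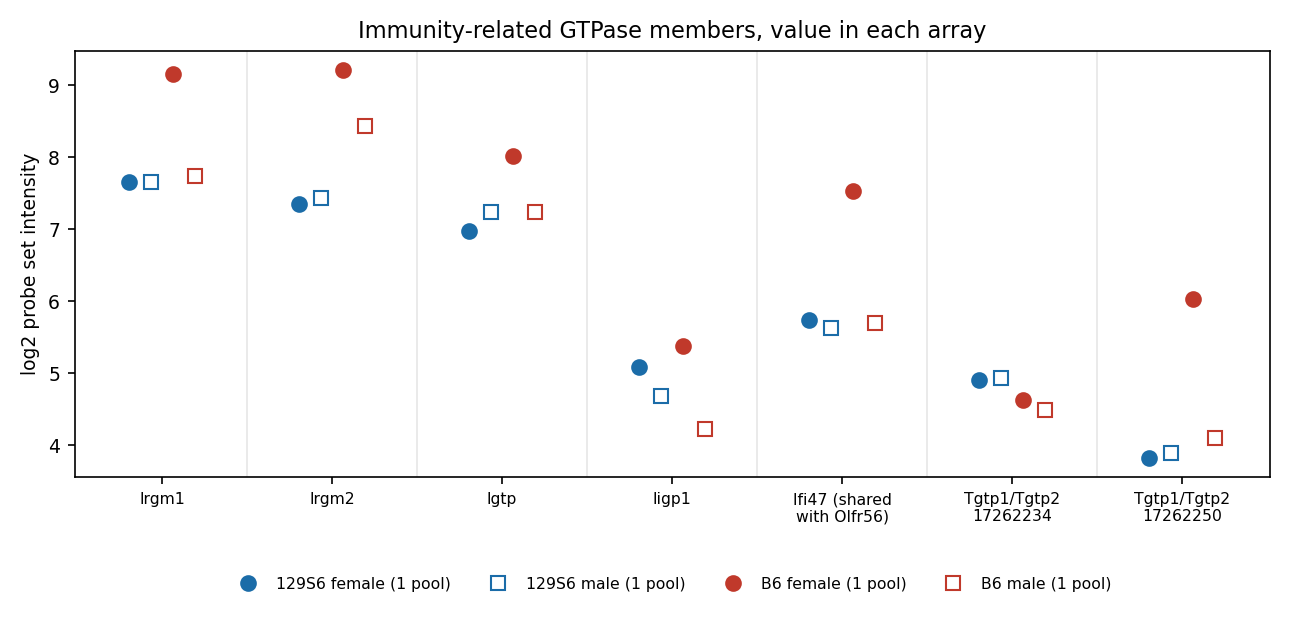
Log2 probe set intensity (vertical axis) of the 7 probe sets that read the members, in each of the 4 arrays; each symbol is 1 pool of 3 mice and there are no error bars. The B6 female array is the highest for 6 of the 7 probe sets, and Irgm2 is the only single-symbol member whose B6 male value (8.43) stands at least 0.5 above both 129S6 values.

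Iigp1, also known as Irga6, encodes an effector that coats the parasite vacuole. It was measured at a low level, at percentile 46.3 of all genes by mean intensity. It read 5.09 in the 129S6 female, 4.68 in the 129S6 male, 5.37 in the B6 female pool and 4.22 in the B6 male pool. The strains overlapped, and in each strain the female value was above the male value. The fitted strain difference was -0.09 ± 0.24 (SE; limma adjusted p = 0.891).

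The effector gene Ifi47, also known as Irgd, was read by a probe set that is annotated with the odorant receptor gene Olfr56 as well. This probe set had 5.74 in the 129S6 female, 5.62 in the 129S6 male, 7.53 in the B6 female pool and 5.69 in the B6 male pool. The B6 female array was 3.46-fold above the 129S6 female, whereas the male arrays of both strains were 0.07 apart on the log2 scale. The difference was 0.93 ± 0.46 (SE; limma adjusted p = 0.426 in the fit that includes shared probe sets). The annotation gives no way to divide this signal between Ifi47 and Olfr56.

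Tgtp1 and Tgtp2 encode near-identical copies of Irgb6, an effector that arrives early at the parasite vacuole, and 2 probe sets carried both names. Probe set 17262250 had 3.82 in the 129S6 female, 3.89 in the 129S6 male, 6.03 in the B6 female pool and 4.10 in the B6 male pool. It was 4.64-fold higher in B6 among females and 1.16-fold higher among males, with a fitted difference of 1.21 ± 0.53 (SE; limma adjusted p = 0.381). Probe set 17262234 went the other way in both sexes, at 4.90 and 4.93 in the 129S6 female and male and 4.63 and 4.49 in those of B6 (-0.35 ± 0.16, adjusted p = 0.390). The 2 probe sets of the same gene pair therefore disagreed, and both lay in the lower part of the range, at percentiles 39.3 and 44.6. Which copy each reads is not given by the annotation.

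None of the 4 single-symbol members was called for strain with limma at an adjusted p under 0.05, where 0.852% of all genes were called and 0.338% of all genes were called higher in B6. At an unadjusted p under 0.05 there was 1 member, Irgm2, and the background was 16.3% of genes. In the fit of 24000 features that adds shared probe sets, 0 of the 3 were called and 0 had an unadjusted p under 0.05, and no feature at all was called there (0.0%; 16.1% with an unadjusted p under 0.05). The additive model counts a disagreement of the sexes as spread. The median difference was 0.66 over the 4 single-symbol members and 0.80 over the 7 probe sets, against -0.02 over all genes tested.

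The sexes were then compared as separate pairs of arrays. In females, 5 of the 7 member probe sets were at least 2-fold higher in B6, where the background was 2.36% of genes. In males 0 of 7 were, against 2.28% of genes, and Irgm2 came nearest with 1.00 after rounding (1.99-fold). A 2-fold difference in both sexes was therefore found for 0 of 7 (1.05% of genes). The median difference over the 7 was 1.51 in females and 0.07 in males. The B6 female array was the highest of the 4 arrays for 6 of the 7 probe sets, all but 17262234, against 19.6% of genes. Both B6 arrays lay above both 129S6 arrays for 3 of the 7 (22.8% of genes), namely Irgm2, the Tgtp probe set 17262250 and Irgm1, the last by a gap of 0.09. The reverse held for 1 of the 7, probe set 17262234 (26.1% of genes). With 1 array per strain and sex, the difference between the sexes could not be tested.

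**Figure D2:**
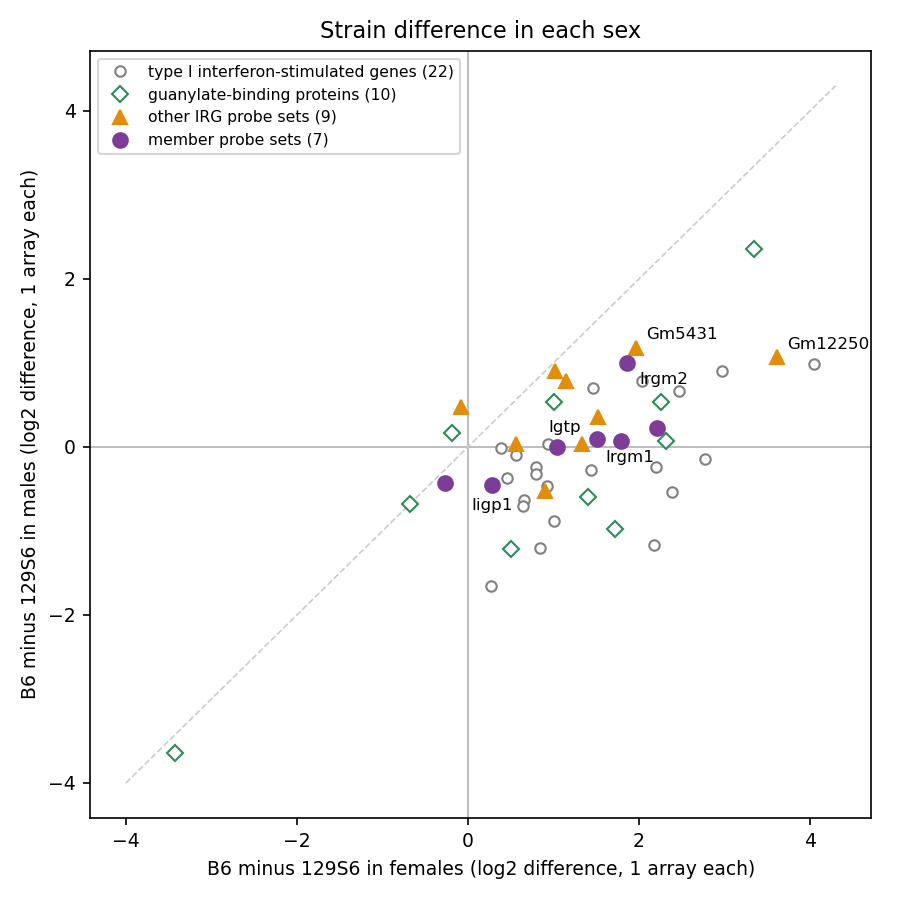
Log2 difference of B6 minus 129S6 in females (horizontal axis) and in males (vertical axis), 1 array against 1 in each case, for the member probe sets, the other probe sets of the family, the guanylate-binding proteins and type I interferon-stimulated genes. Points on the dashed line differ equally in both sexes; Irgm2 lies at 1.86 and 1.00, and Irgm1 at 1.51 and 0.09.

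Seen within strains, the same values placed the departure in B6. The B6 male array was at least 2-fold below the B6 female for 4 of the 7 probe sets, where 1.38% of genes were. Those were Irgm1 (-1.42), Iigp1 (-1.15), the Ifi47 probe set (-1.84) and the Tgtp probe set 17262250 (-1.93). In 129S6, 0 of 7 were at least 2-fold lower in the male array (1.32% of genes), and Irgm1 differed by 0.00. The median male minus female difference of the 7 was -1.15 in B6 and 0.03 in 129S6. In the fit across strains no member was called for sex with limma (0.0135% of genes were called), and only Iigp1 had an unadjusted p under 0.05 (0.0280, adjusted p = 0.860), where 5.22% of genes had one.

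Leaving out 1 array showed which pools the values rested on. These fits have no sex term, and the strain left with 1 array is assumed to vary like the other. Without the B6 male array Irgm1 had 1.51 (limma adjusted p = 0.0458) and Irgm2 1.82 (0.0321), so both were called, where 0.577% of genes were called higher in B6. Without the B6 female array Irgm1 had 0.09 (0.883), and Irgm2 had 1.04 (0.0866), so Irgm2 kept its direction without that pool. Igtp had 0.90 (0.184) without the B6 male and 0.13 (0.843) without the B6 female array. The Tgtp probe set 17262250 had 2.18 (adjusted p = 0.0559) and the Ifi47 probe set 1.85 (0.0791) without the B6 male array, where 0.154% of features were called higher, and 0.25 and 0.01 without the B6 female array. The median over the 4 single-symbol members was 1.21 without the B6 male and 0.11 without the B6 female array.

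The listed other loci of the family were read by 9 probe sets, 8 of them with a single symbol. Gm4841, given further below, was not on that list and is not in its counts. Gm12250, which encodes Irgb10, an effector that acts with guanylate-binding proteins on bacterial membranes, had the largest difference. It read 5.57 in the 129S6 female, 6.33 in the 129S6 male, 9.18 in the B6 female pool and 7.40 in the B6 male pool. Both B6 arrays were above both 129S6 arrays, and the B6 female array stood apart from the B6 male as well. The fitted difference was 2.34 ± 0.64 (SE; limma adjusted p = 0.216).

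Gm5431 had a pattern close to that of Irgm2. Its values were 7.36 in the 129S6 female, 7.52 in the 129S6 male, 9.33 in the B6 female pool and 8.70 in the B6 male pool, a difference of 1.57 ± 0.25 (SE; limma adjusted p = 0.102). It was 3.90-fold higher in B6 among females and 2.27-fold among males. 9930111J21Rik2, known as Irgb5, differed by nearly the same amount in both sexes. It had 8.42 and 8.47 in the 129S6 female and male and 9.43 and 9.37 in the B6 female and male arrays (0.96 ± 0.16, adjusted p = 0.110). A second probe set, shared by 9930111J21Rik1, 9930111J21Rik2 and the proteasome activator gene Psme2, had 8.05 and 8.36 in 129S6 and 9.20 and 9.15 in B6 females and males. The promoter of Gm5431 and that of 9930111J21Rik2 were among those with neither motif.

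Gm12185 was higher in both B6 arrays by a small gap of 0.19, and the other loci overlapped between the strains. Gm12185 had 3.33 and 3.18 in the 129S6 female and male arrays, 4.85 in the B6 female pool and 3.52 in the B6 male pool, all low values. Gm4951, on chromosome 18, had 6.97 in the 129S6 female, 5.97 in the 129S6 male, 8.31 in the B6 female pool and 6.01 in the B6 male pool. Its female values were above its male values in both strains (sex difference -1.66, limma adjusted p = 0.860). F830016B08Rik had 4.70, 4.57, 5.60 and 4.05 in the 129S6 female, 129S6 male, B6 female and B6 male arrays. Irgq, a divergent relative, differed by 0.30 (adjusted p = 0.526), and Irgc1, a relative expressed in testis, by 0.20 (0.691) at a low level.

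**Figure D3:**
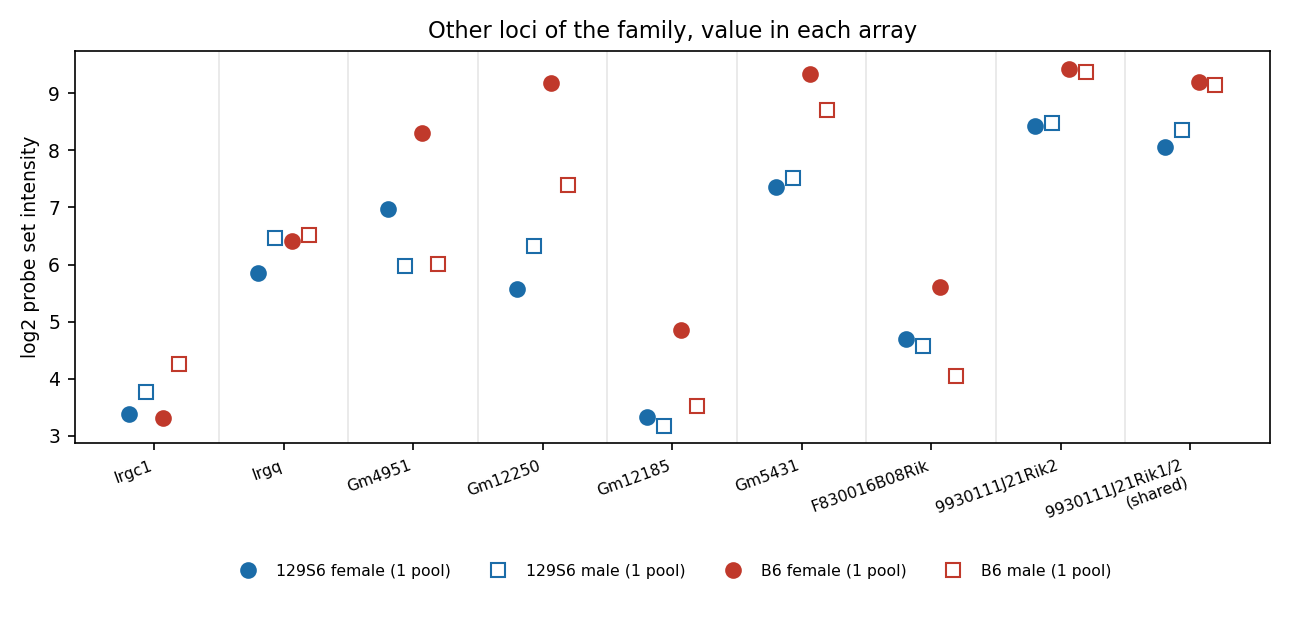
Log2 probe set intensity (vertical axis) of the 9 other probe sets of the family in each of the 4 arrays, 1 pool of 3 mice per symbol and no error bars. Gm12250, Gm5431, both 9930111J21Rik probe sets and, by a gap of 0.19, Gm12185 have both B6 values above both 129S6 values, while Gm4951 and F830016B08Rik are highest in the B6 female array alone.

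Of the 8 listed single-symbol loci, 0 were called for strain with limma and 4 had an unadjusted p under 0.05, all higher in B6 (6.99% of genes were higher in B6 at that p). Without the B6 male array Gm12250 (3.23, adjusted p = 0.0238), Gm5431 (1.89, 0.0306) and Gm12185 (1.60, 0.0428) were called. Without the B6 female array Gm12250 had 1.45 (0.120), Gm5431 1.26 (0.0555) and 9930111J21Rik2 0.92 (0.114). The median over the 9 probe sets was 0.93, with 1.15 in females and 0.48 in males. In males 2 of the 9 were at least 2-fold higher in B6, Gm5431 (1.18) and Gm12250 (1.07).

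The genes lie in 3 clusters. By the order of RefSeq genes, chromosome 11 holds the run from Irgm1 to Ifi47 and the run from Gm12250 over Igtp to Irgm2, and chromosome 18 holds the run from Gm4951 to Iigp1. The members and loci with both B6 values clearly higher were found in both runs on chromosome 11, and each run also held genes that were high in the B6 female array alone. Igtp lies between Gm12250 and Irgm2, and had the smallest difference of the 3 in either sex. In the run on chromosome 18, Gm4841, a further family locus added after its value was seen, had -0.15 (limma adjusted p = 0.702).

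Genes next to the family loci were mostly close between strains. The 29 measured neighbours, up to 5 on each side of each run, had a median of -0.03 (0.03 in females and -0.11 in males). In males 1 of the 29 was at least 2-fold higher in B6 (2.28% of all genes), and in females 2 were (2.36% of all genes). The neighbour nearest to Irgm2, 4930438A08Rik, had 1.10 in females and 0.52 in males. Slc27a6, a fatty acid transporter gene on chromosome 18, was the only neighbour called (1.82, limma adjusted p = 0.0438). The call was lost with several-symbol probe sets added (limma adjusted p = 0.0659) and with all probe sets tested (0.112). It was also lost without the 129S6 female array, where the difference was 1.78. Timd4, a receptor gene for dying cells of resident macrophages, was at -2.76 (0.0579) beside the run that starts with Irgm1.

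**Figure D4:**
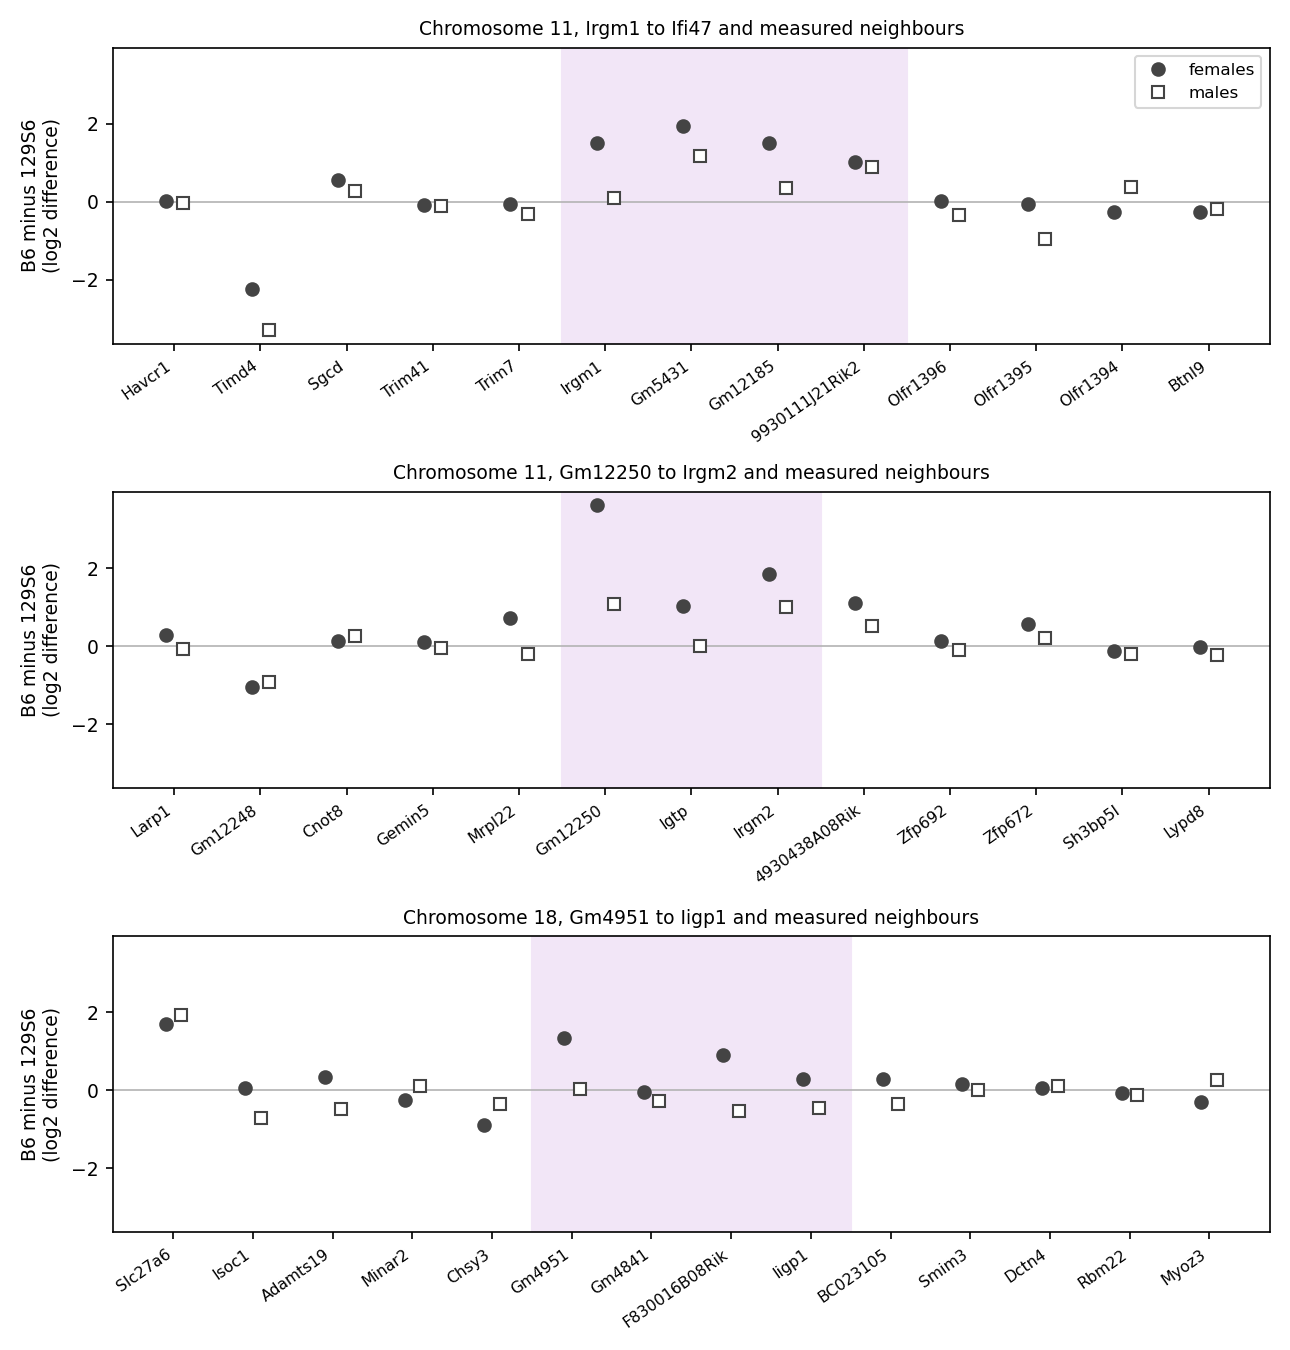
Log2 difference of B6 minus 129S6 (vertical axis) in females (filled circles) and males (open squares) for single-symbol genes in chromosome order, with family loci shaded; each point is 1 array against 1. In females the family loci on chromosome 11 lie between 1.02 and 3.61, and the neighbours have a median of 0.03 over all 3 runs, with 4930438A08Rik (1.10) the highest on chromosome 11.

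The guanylate-binding proteins, large interferon-induced GTPases that act with the IRG proteins, had 10 measured genes. Their median was 1.20 in females and -0.26 in males. The B6 female array was the highest for 7 of the 10 (19.6% of all genes). Gbp2b fell by 3.53 (limma adjusted p = 0.0310), the only one called, and was lower in both B6 arrays. Gbp8 (2.85, 0.0524), Gbp10 (1.40, 0.261) and Gbp3 (1.19, 0.403) had the next largest differences.

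Genes of interferon gamma signalling, the pathway that induces the family, were close between strains. The median over 10 genes was 0.21, 0.28 in females and 0.00 in males, and 0 were called with limma (1 with an unadjusted p under 0.05). The receptor chain gene Ifngr1 had 0.51 (adjusted p = 0.248), the factor Irf1 0.50 (0.527), the kinase Jak2 -0.40 (0.370) and the feedback inhibitor Socs1 -0.37 (0.347). Irf1 was at 9.24 in the B6 female array and between 8.13 and 8.27 in the other 3, so the B6 female array was the highest as it was for Irgm1. The transcript of interferon gamma itself, Ifng, read from 4.46 to 5.12, at percentile 45.6.

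Other targets of interferon gamma had a median of 0.62 over 12 genes, with 0.92 in females and 0.22 in males. Cxcl9, a T cell chemokine gene that responds to interferon gamma, was the only one called. It had 4.90 and 3.99 in the 129S6 female and male and 6.93 and 6.02 in the B6 female and male arrays, and rose by 2.03 (limma adjusted p = 0.0420). The call was lost when any 1 array was left out (limma adjusted p from 0.0562 to 0.16). Nlrc5, the activator of MHC class I genes, had 1.22 (0.187), Nos2, the inducible nitric oxide synthase gene, 1.02 (0.141), and the chemokine gene Cxcl10 0.73 (0.650). Cxcl10 was 2.06 higher in B6 in females and 0.61 lower in males.

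Type I interferon-stimulated genes had a median of 0.38 over 22 genes, 0.98 in females and -0.25 in males. The B6 female array was the highest for all 22 (19.6% of all genes). Of the 22, 18 were at least 2-fold lower in the B6 male than in the B6 female array (1.38% of all genes). With limma 0 were called and 5 had an unadjusted p under 0.05. The largest were the RNA-binding antiviral gene Ifit2 (2.52, adjusted p = 0.245), Rsad2, which encodes viperin (1.94, 0.216), Oas3, a sensor of double-stranded RNA (1.57, 0.241), and the tethering factor gene Bst2 (1.41, 0.184). In males 0 of these 22 were at least 2-fold higher in B6. The male difference reached 0.99 for Ifit2 and 0.90 for Rsad2, and it was 1.00 for Irgm2 and 0.90 for 9930111J21Rik2.

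Among type I interferon ligands, receptor chains and factors, 1 of 10 genes was called. Ifna4, an interferon alpha gene whose family members are similar in sequence, rose by 2.28 (limma adjusted p = 0.0401), with 5.22 and 5.10 in 129S6 and 7.40 and 7.47 in B6. In the fit with several-symbol probe sets no feature was called, so the calls of Ifna4, Gbp2b, Cxcl9 and Slc27a6 were all lost there. The receptor gene Ifnar1 had -0.69 (0.171), Irf7 0.61 (0.491) and Stat2 0.44 (0.550). Irf7 and Stat2 were above their other 3 values in the B6 female array, at 11.50 and 10.10. Ifnb1 read between 2.33 and 3.02, at percentile 5.8.

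The autophagy conjugation machinery and ubiquitin adaptors that help place IRG proteins on vacuoles showed little difference. The median over 13 genes was 0.08, the range was -0.29 to 0.39, and 0 were called with limma, with 0 at an unadjusted p under 0.05. The largest were Atg12 (0.39), Gabarapl1 (0.38), Trim21 (-0.29) and Atg16l1 (-0.24).

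**Figure D5:**
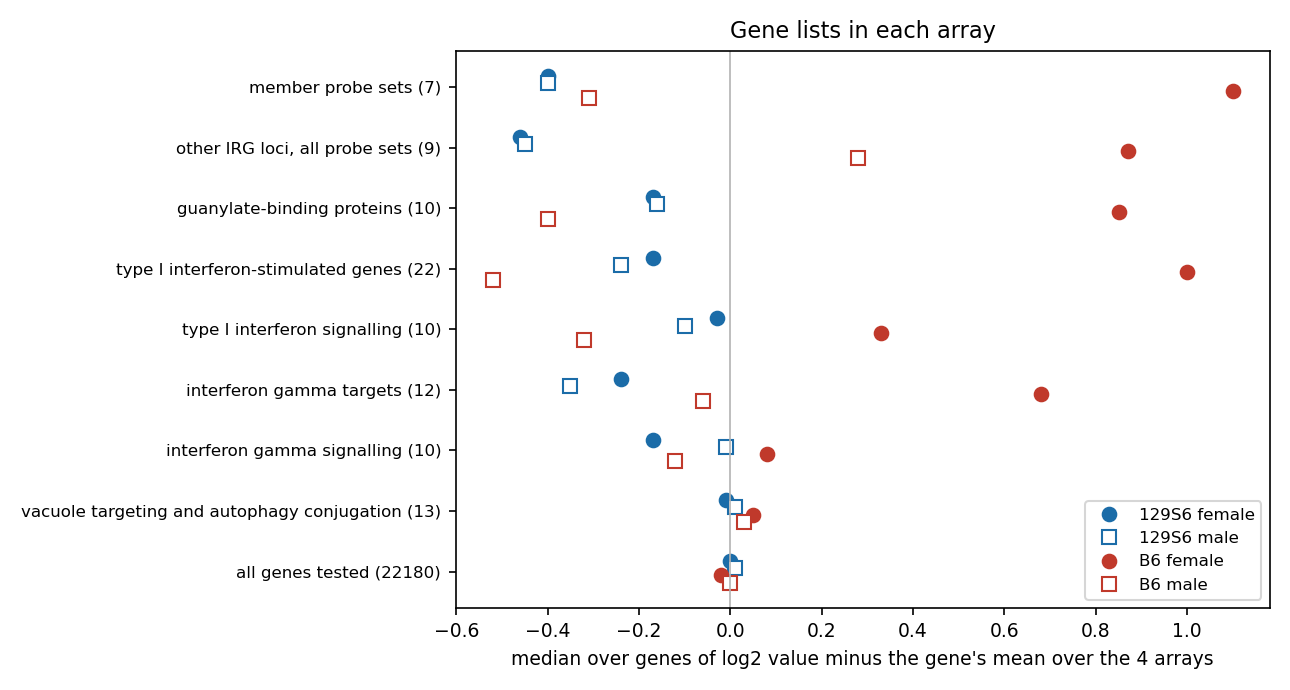
Median over the genes of each list of the log2 value minus the gene's own mean over the 4 arrays (horizontal axis), for each array; the number of genes is in brackets and there are no error bars. The member probe sets stand at 1.10 in the B6 female array and at -0.40, -0.40 and -0.31 in the 129S6 female, 129S6 male and B6 male arrays, while the autophagy list stays within 0.05 of zero.

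Among 2881 genes outside the members whose values ranged over at least 1 on the log2 scale, those with the most similar pattern over the 4 arrays were ranked. The measure was the root mean square distance, on the log2 scale, to the median centred profile of the single-symbol members (-0.40, -0.28, 0.87 and -0.22 in the 129S6 female, 129S6 male, B6 female and B6 male arrays). The closest were Ifna13 (0.020), the RNA helicase gene Znfx1 (0.043), Hadhb (0.044), Prr15 (0.070), Cyp11a1 (0.075) and Zfp947 (0.079). Of these Znfx1 was well expressed, at 9.35, 9.37, 10.53 and 9.52 in the same order of arrays, while Ifna13 was at percentile 3.5. The strain difference of Cyp11a1 was 0.81 for the probe set kept and 0.26 for the mean of its probe sets. Gm12185 ranked 56 and Gm12250 1877. With 4 arrays this is a description of shape alone.

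The labels and the cells were checked on the same arrays. Xist read 11.86 and 11.88 in the female and 3.91 and 4.05 in the male arrays, and Ifi202b, known to be weakly expressed in B6, was lower in both B6 arrays. The macrophage markers Cd68, Lyz2, Csf1r and Adgre1 read from 11.11 to 12.90 in all arrays. The other 3 genes of that list differed more, with Fcgr1 1.72 and Mertk 0.78 higher in B6 and Itgam at -0.87, and limma called 0 of the 7, with 5 at an unadjusted p under 0.05. Markers of T cells and natural killer cells, the usual sources of interferon gamma, were low, with median levels over 5 and 4 genes from 4.15 to 4.76 and from 3.64 to 4.16. Their summed log2 levels were 20.28, 21.14, 22.12 and 20.61 for T cells, and 16.06, 17.04, 17.64 and 16.54 for natural killer cells, in the 129S6 female, 129S6 male, B6 female and B6 male arrays. Both sums were highest in the B6 female array. Gene by gene, that array was the highest for only 2 of 5 T cell and 2 of 4 natural killer cell markers (19.6% of all genes). The part of these cells in the results was not tested. Markers of resident peritoneal macrophages were lower in both B6 arrays for 6 of 6 genes, with a summed level of 62.84 and 60.28 in 129S6 and 43.89 and 43.72 in B6, and 3 of 6 were called lower. Fibroblast markers were lower in both B6 arrays for 7 of 8 genes (64.71 and 63.26 in 129S6, 45.05 and 49.89 in B6), with 3 of 8 called lower. Eosinophil or mast cell markers were higher in both B6 arrays for 4 of 6 genes (23.78 and 23.38 in 129S6, 26.80 and 28.59 in B6), and 1 of 6, Siglecf, was called higher. Markers of B cells and neutrophils were lower in both B6 arrays for 3 of 4 and 3 of 5 genes (26.1% of all genes), with 0 called. Of 4 plasmacytoid dendritic cell markers, 2 were higher in both B6 arrays and 2 were lower, with 0 called. For comparison, limma called 0.514% of all genes lower in B6 and 0.338% higher. No feature was called once several-symbol probe sets were added, so the calls of resident macrophage, fibroblast and eosinophil or mast cell markers were lost there too. The resident macrophage list and most of the fibroblast list separated the strains as Irgm2 and Gm5431 did, but in the opposite direction. Of the eosinophil or mast cell list, Siglecf (gap 1.6) and Cpa3 (gap 0.5) separated them in the same direction. Prg2 and Epx did so by gaps of 0.11 and 0.15 at low levels (percentiles 11.4 and 13.9), while Kit and Mcpt4 overlapped. The part of any of these lists in the difference of Irgm2 and Gm5431 was not tested. In pooled cells, fewer cells of a type and less RNA per cell cannot be told apart.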

How the data were processed

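Peritoneal macrophage RNA (250 ng per pool) was hybridized to Affymetrix Mouse Gene ST arrays. The values as deposited were log2 intensities per probe set, made by the authors with Affymetrix Expression Console (version and summarization not given in the sources used here). Array medians ran from 4.85 to 4.87 and values from 0.79 to 13.81, so no further normalization was applied. Of 41345 probe sets, 23521 had 1 gene symbol in the platform annotation, 1820 had several and 16004 were not listed. The brightest single-symbol probe set by mean was kept for each of 22180 genes. Strain (B6 minus 129S6) and sex (male minus female) were additive terms in a limma 3.58.1 fit in R 4.3.3, with Benjamini-Hochberg adjustment over all genes and a call at an adjusted p under 0.05. The fit had 1 residual degree of freedom and a prior of 3.18. The p-values and SE rest on the spread between 4 pools, moderated by limma toward that of all genes fitted, and not on individual mice. Shared probe sets were tested in a fit of their own with all single-symbol genes. Alternatives were no sex term, other variance priors, brighter genes only, quantile normalization, the mean of a gene's probe sets, all probe sets, and leaving out each array. All members, called list genes and up to 4 of each pathway list with the largest difference were named, with 6 genes of like pattern; further genes and markers were added after their values were seen. The members and lists were chosen with earlier results of these data known. The script was tested on simulated data. The number of arrays and the background of dim probes limit precision, and whether probes match the 129S6 sequence was not tested. The methods text of the study and the labels give different numbers of mice per pool, and that of the labels is used.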

Additional observations from a re-analysis of the deposited data

Results flagged for a closer look

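For 3 genes of the family the strain difference had opposite signs in the sexes, each from 1 array against 1, and the difference between the sexes was not tested. Iigp1 had 0.28 in females and -0.45 in males. F830016B08Rik had 0.90 in females and -0.52 in males. Irgc1, at a low level, had -0.08 in females and 0.48 in males.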

How the results depend on the processing

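The median difference of the single-symbol members was 0.66 and stayed positive under every alternative run, from 0.11 to 1.21 with 1 array left out (the lowest without the B6 female, the highest without the B6 male array). The count of genes called for strain was 189. Dropping the sex term gave 431 and letting the variance prior follow the level gave 1256. It was 589 among the brighter genes, 0 with several-symbol probe sets added (3853 with an unadjusted p under 0.05), 0 with all probe sets tested (5707), and 84 to 564 with 1 array left out. The count for sex was 3, and became 5 with that prior, 1 without the strain term (431 with an unadjusted p under 0.05), 1 with several-symbol probe sets added, 0 with all probe sets tested (2061) and 0 with any 1 array left out (365 to 628). Among members, Irgm2 passed with the variance prior following the level, and Irgm1 and Irgm2 passed without the B6 male array. With 1 array left out, 11 genes changed sign in at least 1 fit. The range was -0.66 to 0.49 for Iigp1 (0.12 when the 129S6 female array was left out), -0.58 to 0.96 for F830016B08Rik, -0.46 to 1.84 for Gm4951, -0.27 to 0.67 for Irgc1, 0.00 to 0.61 for Irgq, -0.34 to 0.03 for Gm4841, -0.03 to 1.04 for Irf1, -0.33 to 1.79 for Cxcl10, -0.14 to 1.02 for Stat2, -0.07 to 1.28 for Irf7 and -0.62 to 0.05 for Trim21. The cause was not tested. Of 562 values recomputed for 50 genes or probe sets, 506 kept direction and side of the threshold, 30 passed it newly and 14 no longer passed. The labels give no replicate numbers, and the pairing of arrays used was that by sex, through the sex term of the model.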
